A study of Mus musculus with 192 samples.

Results

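The Mirg cluster is a run of miRNA genes between miR-379 and miR-410 in the Dlk1-Dio3 imprinted region of mouse chromosome 12. Its members were chosen by annotation, without regard to their values, as 39 mature miRNAs of hairpins that lie between Mir379 and Mir410, out of 1960 miRNAs listed for each tissue. The cluster was examined in small RNA sequencing libraries of cortex, heart and lungs from male SKH-1 mice, a hairless, immunocompetent, outbred stock, that received fentanyl, a synthetic opioid that acts on the μ-opioid receptor. Mice were given fentanyl citrate under the skin at 62 mg/kg (HNLD, the highest non-lethal dose), 110 mg/kg (LD10) or 135 mg/kg (LD50). Sham mice were given Ringer's solution, the vehicle. The sample labels name the 62 mg/kg group LOEL, and the paper's name HNLD is used here. Tissues were taken at 0h (40 min after injection), 6h, 24h or 7d. Each of the 16 combinations of treatment and timepoint had 4 mice, except that 3 libraries were at hand for sham cortex at 24h and for LD50 lungs at 7d, so that there were 63 cortex, 64 heart and 63 lung libraries. One heart library, FP91, has a column header that names LD10, while its sample label gives sham; it was taken as sham. The questions were how the members' levels are ordered along the chromosome, whether the members vary together from mouse to mouse, and whether they differ with dose or time.

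miRNAs are short RNAs that guide Argonaute proteins to messenger RNAs, mostly through pairing of bases 2 to 8 of the miRNA (the seed), and lower the output of those messages. In mice the miR-379 to miR-410 hairpins are expressed from the maternally inherited chromosome only, are thought to be cut from a long shared precursor RNA, and are found mostly in brain. In rat neurons, transcription of the cluster follows neuronal activity through the factor Mef2, and miR-134-5p, miR-329-3p and miR-381-3p are needed for the outgrowth of dendrites.

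The mature sequences of the members on which the results turn are printed with the seed in capitals, because several of them are near copies of each other. The letters are from RefSeq (GRCm38.p6), in which 36 of the 39 members had an entry; mmu-miR-376c-3p, mmu-miR-485-5p and mmu-miR-487b-3p had none. Positions are those of exact matches on NCBIM37 (mm9), where each of the 36 had 1 match on chromosome 12, on the plus strand.
mmu-miR-379-5p: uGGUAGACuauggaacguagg
mmu-miR-379-3p: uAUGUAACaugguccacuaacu
mmu-miR-411-5p: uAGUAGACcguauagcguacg
mmu-miR-411-3p: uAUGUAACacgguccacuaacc
mmu-miR-299a-5p: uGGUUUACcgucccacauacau
mmu-miR-299a-3p: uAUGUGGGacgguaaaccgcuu
mmu-miR-494-3p: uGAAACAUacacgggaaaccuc
mmu-miR-376b-5p: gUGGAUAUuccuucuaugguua
mmu-miR-376b-3p: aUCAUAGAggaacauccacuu
mmu-miR-376a-3p: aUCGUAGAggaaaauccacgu
mmu-miR-300-3p: uAUGCAAGggcaagcucucuuc
mmu-miR-381-3p: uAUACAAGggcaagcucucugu
mmu-miR-382-5p: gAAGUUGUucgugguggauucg
mmu-miR-382-3p: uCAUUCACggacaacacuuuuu
mmu-miR-541-5p: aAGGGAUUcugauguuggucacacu
mmu-miR-409-5p: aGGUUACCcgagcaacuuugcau
mmu-miR-369-5p: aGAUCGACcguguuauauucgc
mmu-miR-369-3p: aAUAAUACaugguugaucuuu
mmu-miR-410-3p: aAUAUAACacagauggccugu
The first of these, miR-379-5p, lies at chr12:110947275-110947295 and the last, miR-410-3p, at chr12:110981974-110981994, so that the cluster spans 34.7 kb and 28 hairpins. The most abundant member, miR-411-5p, lies at chr12:110948400-110948420, miR-494-3p at chr12:110953577-110953598, miR-376b-5p at chr12:110961681-110961702, miR-381-3p at chr12:110965080-110965101 and miR-541-5p at chr12:110980632-110980656. The annotated Mirg gene (chr12:110973191-110987665, 10 exons) covers only the distal end: 27 members lie upstream of it, 7 in its introns and 2 (miR-377-3p and miR-410-3p) in exons. Of the 36 members, 16 begin with U, 15 with A, 4 with G and 1 with C, and they are 19 to 25 bases long. Only 1 seed was shared by members, that of miR-379-3p and miR-411-3p (AUGUAAC). These 2 members differ by 2 edits over their whole length, miR-300-3p from miR-381-3p by 3 and miR-376a-3p from miR-376b-3p by 3. Outside the list, miR-376b-5p is 1 edit from miR-376c-5p and miR-299a-5p is 1 edit from miR-299b-5p. The paper names an aligner set to allow mismatches, without saying whether this held for the mapping to miRNAs. The split of reads within each of these pairs is therefore taken as uncertain. The miR-376 family is also known for A-to-I editing in brain, which changes letters of the seed.

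Values are reads divided by a library factor that the authors derived with TMM, a scaling that assumes most miRNAs do not change. Every tissue was scaled alone, so levels are compared between tissues only as a share of all reads. Libraries held 1775669 to 8381425 reads in cortex (median 4498628), 215163 to 5355085 in heart (median 2036132) and 196853 to 6540900 in lungs (median 3863362). A member was tested where it reached a value of 10 in at least 4 libraries: 37 of 39 in cortex (all but miR-758-3p and miR-154-3p), 9 in heart and 14 in lungs.

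Several libraries went against their labels or stood apart. Over 277 miRNAs, the cortex libraries FP96 (sham 0h) and FP85 (sham 6h) each correlated at 0.991 with the lungs profile, against 0.639 and 0.644 with the cortex profile. The 6 listed neuronal miRNAs, which include miR-124-3p and miR-9-5p, summed to 518 in FP96 and 710 in FP85, against 108875 to 171432 in the 60 other cortex libraries, and the epithelial list summed to 11612 and 13761 there, against 85.9 to 8126. Cortex FP24 (HNLD 7d) held a neuronal sum of 53652, below all 60, and a muscle sum of 2766, above their range of 164 to 1556. For mouse FP38 (HNLD 6h) the labels of heart and lungs went against the data in both directions: the heart library correlated at 0.993 with lungs and at 0.849 with heart, and the lungs library at 0.963 with heart and at 0.895 with lungs. Lungs of FP91 to FP96 and FPB2 had epithelial sums of 14865 to 19686, against 6021 to 9916 in the 55 others left after FP38. Mouse numbers followed treatment: FP16 to FP58 held 16 HNLD, 15 LD10 and 2 LD50 mice, FP59 to FP88 held 14 LD50 and 10 sham mice, and FP91 to FP96 with FPB2 held 6 sham mice and 1 LD10 mouse. Results that rest on these libraries are given with and without them. The labels do not say whether the mice of a group shared a litter, cage or day, so p-values measure the spread between these samples. In bulk tissue, fewer cells of a type and less RNA per cell cannot be told apart.

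The cluster held a far larger share of the miRNA reads in cortex than in the other tissues. All reads are here those counted for the listed miRNAs of a library. In cortex, without FP96, FP85 and FP24, the 39 members together held 5.81% ± 0.73 of all reads (SD, n = 60; 4.16 to 7.75%). The share was 0.118% ± 0.023 in heart without FP38 (n = 63; 0.0712 to 0.171%). It was 0.0927% ± 0.0474 in lungs without FP38, FP91 to FP96 and FPB2 (n = 55; 0.0541 to 0.403%), and 0.0870% ± 0.0210 (n = 54; 0.0541 to 0.141%) without FP17 as well. Cortex thus did not overlap with heart or lungs, which overlapped with each other. Of the libraries left out, FP96 held 0.0698% and FP85 0.0862%, inside the range of lungs, and FP24 held 3.65%. Across cortex groups the mean share ran from 5.08% ± 0.41 in LD50 at 6h (n = 4) to 7.12% ± 0.34 in HNLD at 6h (n = 4; 6.88 to 7.62%). Only 3 libraries of other groups (FP55 of LD10 0h, FP59 of LD50 7d and FPB2 of LD10 6h) reached into or past that last range.

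**Figure D1:**
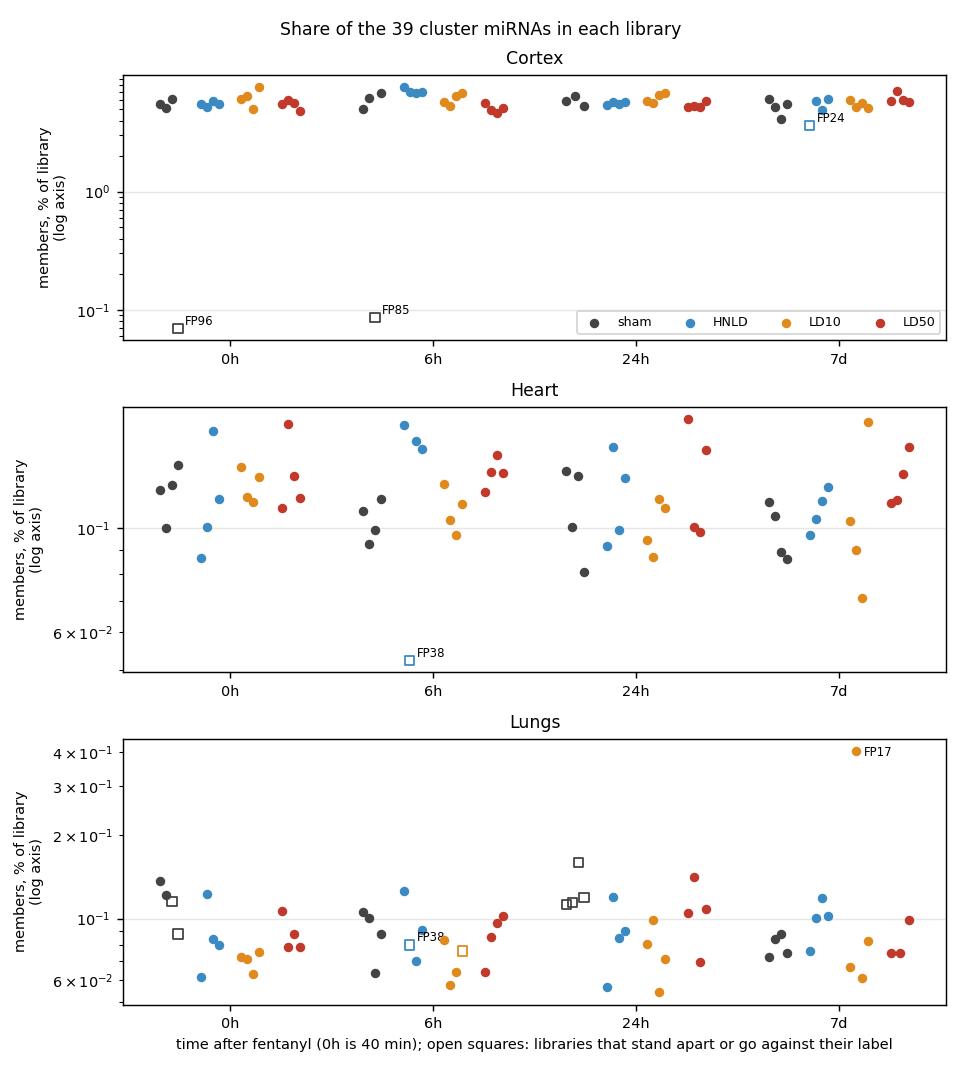
Share of all reads of a library (percent, log axis) held by the 39 members, by treatment and timepoint in cortex, heart and lungs; each point is 1 library, and open squares are libraries that stand apart or go against their label. Cortex libraries lie between 4.16 and 7.75% apart from FP96, FP85 and FP24, while heart and lungs lie near 0.1%.

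A few members carried most of the signal, in much the same order in each tissue. In cortex the value of miR-411-5p was 15736 ± 2570 (SD, n = 60; 10831 to 22523), 27.5% of the members' sum. miR-381-3p followed at 11308 ± 2252 (8078 to 16944) and miR-410-3p at 9083 ± 1574 (5606 to 13073). The ranges of these 3 overlapped. miR-300-3p (6456 ± 541) was the steadiest of the 39, with a coefficient of variation of 8.38%, and miR-541-5p (4309 ± 1230) completed the 5 that made up 82.1% of the sum. The next 9 members had means from 489 to 1485 (miR-487b-3p, miR-409-3p, miR-369-3p, miR-376b-3p, miR-380-3p, miR-369-5p, miR-667-3p, miR-323-3p and miR-668-3p). A further 13 had means from 108 to 346 (miR-376b-5p, miR-411-3p, miR-485-5p, miR-382-5p, miR-376a-3p, miR-495-3p, miR-379-5p, miR-666-5p, miR-154-5p, miR-379-3p, miR-485-3p, miR-134-5p and miR-543-3p). Between 14.1 and 71.9 lay miR-299a-3p, miR-329-3p, miR-376c-3p, miR-382-3p, miR-409-5p, miR-377-3p, miR-299a-5p and miR-380-5p. The lowest were miR-539-5p (9.64), miR-494-3p (5.79 ± 3.12), miR-154-3p (5.28) and miR-758-3p (1.40). No member was at 0 in any of the 60 cortex libraries, and neighbours in this order mostly differed by less than their SD.

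In heart miR-411-5p stood at 578 ± 110 (n = 63; 336 to 932) and held 49.2% of the members' sum. miR-381-3p followed at 239 ± 87.6 (84.3 to 582) and miR-541-5p at 84.8 ± 28.6 (23.5 to 191). In lungs the same 3 led, with miR-411-5p at 467 ± 191 (n = 55; 217 to 1651; 49.4% of the sum), miR-381-3p at 166 ± 255 and miR-541-5p at 76.8 ± 37.6. Both tissues had miR-410-3p (80.2 and 72.9) and miR-300-3p (70.8 and 63.6) next, and the 5 leading members made up 89.5% of the sum in heart and 89.6% in lungs. These are the 5 members that led in cortex. Many of the rest were near the floor of counting: 27 members were at 0 in some heart libraries and 23 in some lung libraries, and miR-758-3p was at 0 in all 55 lung libraries.

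The excess of cortex was not even over the members. As a share of reads, miR-411-5p was 27.7 times as high in cortex as in heart and 34.7 times as high as in lungs. miR-300-3p was 92.8 and 104 times as high, and miR-410-3p 115 and 128 times. The span of these ratios was wide, from miR-487b-3p (463 and 464) and miR-323-3p (403 and 402) to miR-299a-3p (8.09 and 7.99) and miR-494-3p (5.85 and 5.65). miR-299a-3p and miR-411-5p lie within 1 kb of each other, so closeness on the chromosome did not go with equal ratios there; this pair was picked after its values were seen.

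Level had no trend along the chromosome. The rank correlation of mean level with position over the 36 placed members was 0.18 in cortex, 0.039 in heart and 0.015 in lungs, given as a description. The signal sat in 3 stretches. The first 10 kb from miR-379-5p (15 members, led by miR-411-5p) held 31.9% of the members' sum in cortex, 53.5% in heart and 54.7% in lungs. The stretch from 10 to 20 kb (7 members, led by miR-381-3p and miR-300-3p) held 34.6, 27.3 and 23.6%, and that from 30 to 40 kb (7 members, led by miR-410-3p and miR-541-5p) held 28.4, 16.9 and 18.8%. Between 20 and 30 kb, 7 members, among them miR-134-5p, miR-382-5p and miR-668-3p, held 1.96, 1.57 and 2.16%. Neither base composition nor length was used to choose the members, and the GC content ran from 23.8 to 68.2%.

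**Figure D2:**
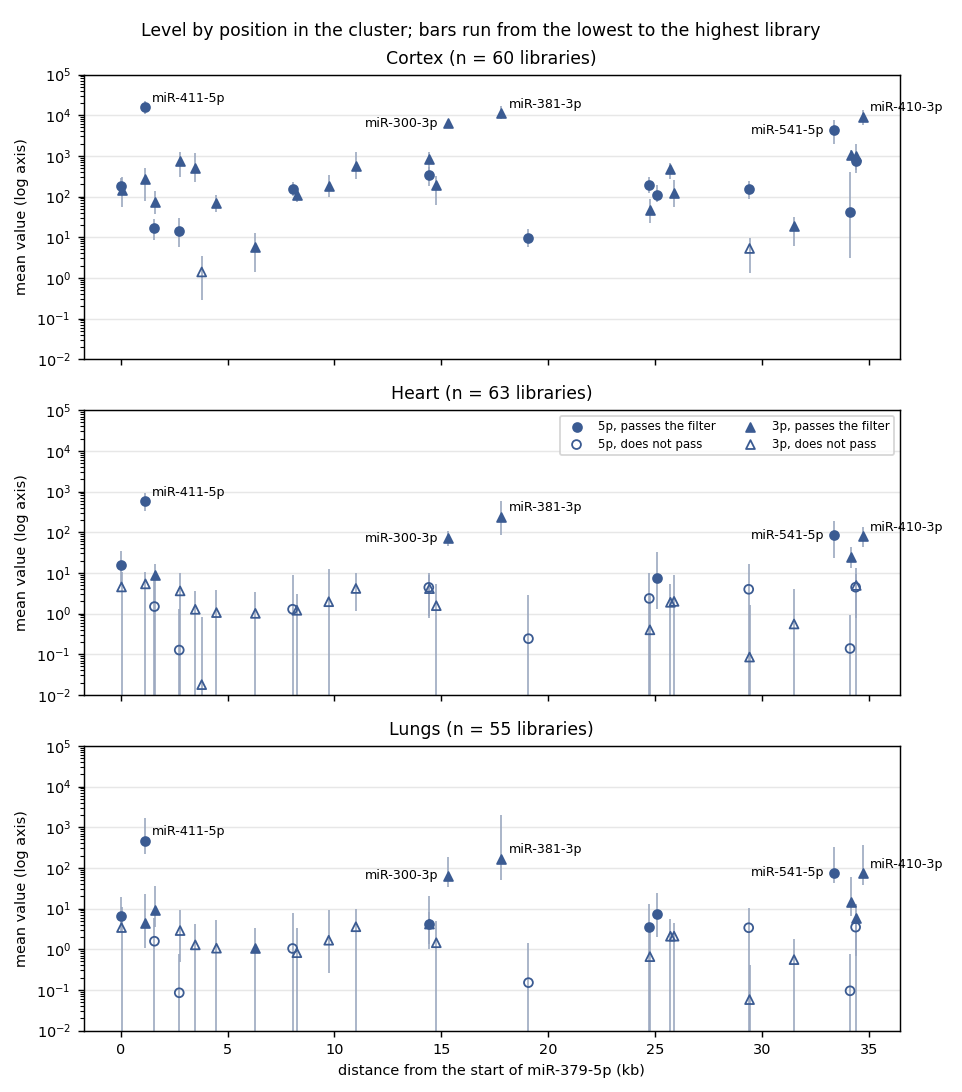
Mean value of each placed member (log axis, normalized reads; bars run from the lowest to the highest library) against its distance in kb from the start of miR-379-5p, in cortex (n = 60), heart (n = 63) and lungs (n = 55) without the libraries that stand apart or go against their label. The same members, miR-411-5p, miR-381-3p, miR-300-3p, miR-541-5p and miR-410-3p, stand highest in each tissue, and the stretch from 20 to 30 kb is low.

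In cortex both arms were tested for 9 of the hairpins, and the arm that prevailed differed between neighbours. The log2 ratio of the 5p to the 3p arm was 5.90 ± 0.36 (SD, n = 60) for miR-411 and 2.03 ± 0.34 for miR-382. It was −5.69 ± 1.65 for miR-409, −5.60 ± 0.64 for miR-380 and −1.97 ± 0.58 for miR-299a. miR-379 (0.36 ± 0.54) and miR-369 (−0.35 ± 0.81) had arms at levels closer to each other than their spread between mice. The arms of 1 hairpin come from 1 precursor, but their deviations from the group mean were not always alike. They ran together for miR-411 (r = 0.69) and miR-382 (r = 0.59), but in opposite directions for miR-369 (r = −0.66) and miR-485 (r = −0.63). Each of these is a correlation over 60 libraries that share a table and a scaling, given without a test.

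The members' shared variation in cortex rested on the libraries that stood apart. Over all 63 libraries the median correlation between members, taken on deviations from the group mean, was 0.87 over 666 pairs, against 0.056 over all pairs of tested miRNAs. Without FP96, FP85 and FP24 it was 0.10, and 43.2% of the pairs were negative (−0.87 to 0.91). What remained was a pattern with opposed ends. The first principal component held 38.3% of the members' variance, and 19 members lay on one side and 18 on the other. At one end were miR-369-3p (loading 0.94), miR-299a-3p (0.90), miR-541-5p (0.89), miR-323-3p (0.89) and miR-667-3p (0.87). At the other end were miR-376a-3p (−0.90), miR-380-3p (−0.85), miR-377-3p (−0.80), miR-369-5p (−0.77) and miR-409-5p (−0.73). The arms of miR-369 thus lay at opposite ends.

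Distance on the chromosome did not order these correlations. Without the libraries that stand apart, the median correlation was 0.058 for arms of the same hairpin (8 pairs), 0.10 for members under 2 kb apart, 0.092 from 2 to 10 kb and 0.12 from 10 kb on. Across members, the rank correlation of the loading was −0.055 with position, 0.046 with GC content, 0.004 with length and 0.18 with mean level (34 members).

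miRNAs outside the list of members lay along the same pattern. Of 445 tested miRNAs outside the list, 32 correlated with it above 0.7 and 49 below −0.7, 18.2% in all. The 445 include 22 miRNAs upstream of miR-379 in the imprinted region and 15 other arms of hairpins between miR-379 and miR-410. miR-188-5p (r = 0.93), miR-132-3p (r = 0.90), miR-138-5p (r = 0.90) and miR-150-5p (r = 0.88) were on the side of miR-369-3p. miR-151-5p (r = −0.95), miR-125b-5p (r = −0.92), miR-338-3p (r = −0.91), which is abundant in oligodendrocytes, and the neuronal miR-124-3p (r = −0.90) were on the side of miR-376a-3p. Both ends therefore held neuronal miRNAs, and miR-132 had its arms on opposite sides (miR-132-5p, r = −0.89). The summed leukocyte list correlated with the pattern at 0.89, the neuronal list at 0.64, endothelial at 0.44, smooth muscle at 0.05, epithelial at −0.21, erythroid at −0.32, fibroblast at −0.40 and muscle at −0.53, while the number of reads did so at −0.05. The lists were themselves divided. Of the leukocyte miRNAs, miR-150-5p and miR-142a-3p (0.54) lay on one side and miR-223-3p (−0.59) and miR-142a-5p (−0.42) on the other. Of the endothelial miRNAs, miR-126a-5p was at 0.61 and miR-126a-3p at −0.60. Of the neuronal miRNAs, miR-137-3p was at 0.56 and miR-153-3p at −0.66. Each value is over the same 60 libraries, and the part of these lists in the pattern was not tested.

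The pattern was visible in single libraries. In FP59 (LD50 7d), miR-124-3p was 2091, miR-369-3p 1700 and miR-376a-3p 80.8. In FP22 (LD10 6h), miR-124-3p was 9929, miR-369-3p 706 and miR-376a-3p 282. By their values, which hold the group difference that deviations from the group mean leave out, the 4 HNLD mice at 6h lay toward FP59. They had miR-124-3p from 2683 to 3082, miR-369-3p from 1152 to 1942 and miR-376a-3p from 68.2 to 107. By their deviations they were divided, with scores on the component of 0.60 (FP49), 0.29 (FP45), −0.29 (FP38) and −0.60 (FP33). Mice of LD10, LD50 and sham were found at both ends.

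**Figure D3:**
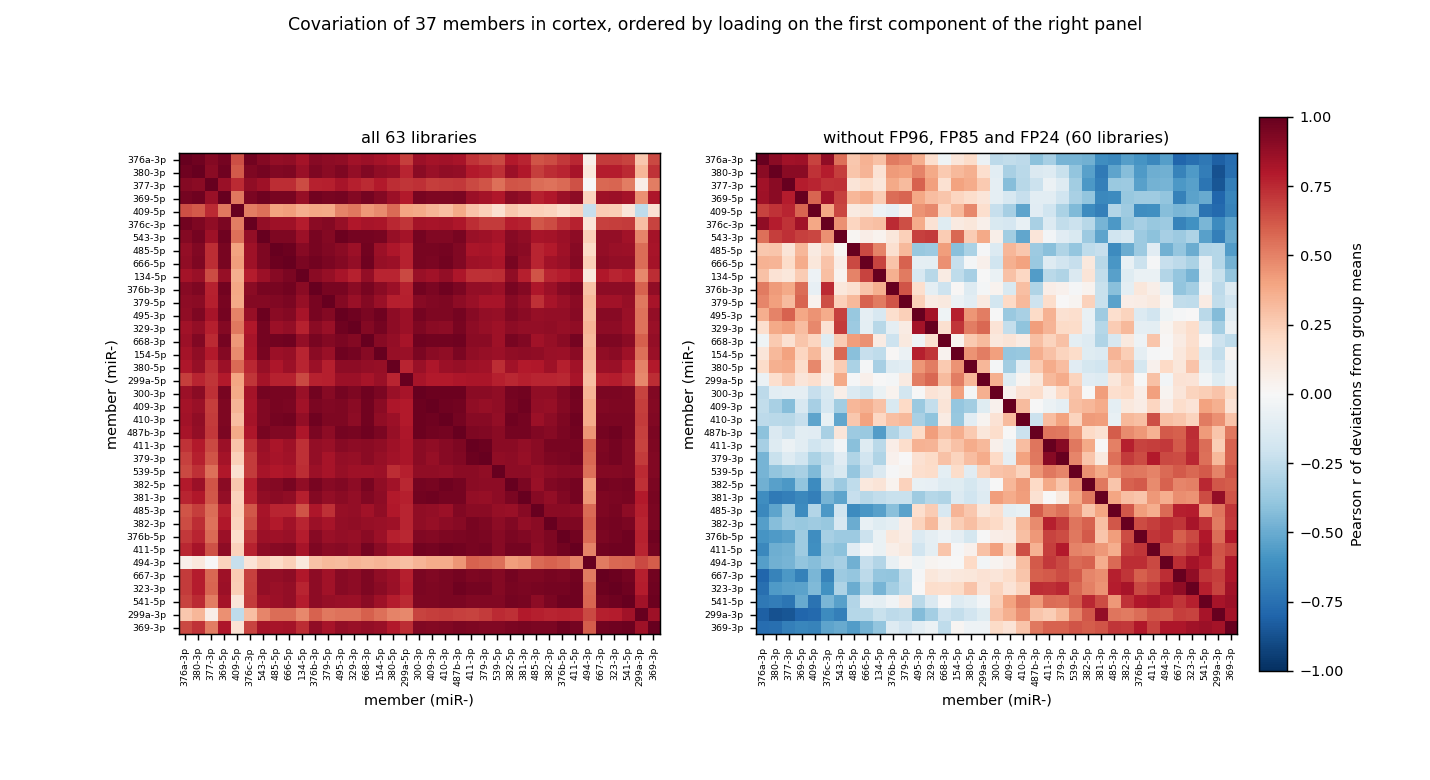
Correlation of deviations from the group mean between the 37 tested members in cortex, with members ordered on both axes by their loading on the first component, over all 63 libraries and over the 60 left without FP96, FP85 and FP24. With all libraries nearly every pair is positive (median 0.87); without them the members fall into opposed blocks (median 0.10).

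In heart and lungs the few tested members varied together more evenly. In heart without FP38 the median over 36 pairs of 9 members was 0.44, 13.9% of pairs were negative and all 9 loadings had the same sign. In lungs without FP38, FP91 to FP96 and FPB2 it was 0.46 over 91 pairs of 14 members, again with all loadings of the same sign. A single library weighed on the latter: without FP17 (LD10 7d) as well, it was 0.29 (n = 54). In both tissues, the miRNAs outside the list whose deviations were most like the members' mean lay in the same imprinted region upstream of miR-379. In heart these were miR-127-3p (r = 0.63), miR-434-5p (0.62), miR-127-5p (0.59), miR-341-3p (0.58) and miR-434-3p (0.56), over 63 libraries. In lungs without FP17 they were miR-136-3p (r = 0.80), miR-127-5p (0.74), miR-434-5p (0.71), miR-341-3p (0.69) and miR-136-5p (0.67), over 54 libraries. In cortex without the 3 libraries the nearest were miR-17-5p (r = 0.73), miR-140-5p (0.73), miR-1839-3p (0.73), miR-331-3p (0.69) and miR-496a-3p (0.68). The last of these is another arm of a hairpin between miR-379 and miR-410. Over all 63 cortex libraries the nearest had been brain miRNAs such as miR-592-5p (0.98) and miR-137-3p (0.98). Between tissues of the same mouse the members' share was weakly correlated at most. Pearson's r was 0.22 and Spearman's rho 0.29 between cortex and heart (59 mice), −0.15 and −0.17 between cortex and lungs (53 mice), and 0.09 and 0.16 between heart and lungs (55 mice).

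**Figure D4:**
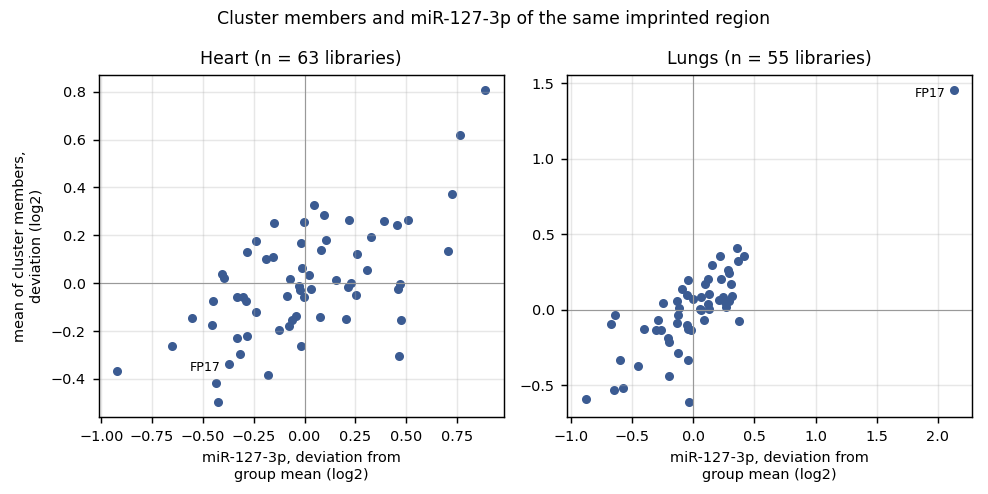
Mean deviation of the tested members from the group mean (log2 scale) against that of miR-127-3p, a miRNA of the same imprinted region upstream of miR-379, in heart (n = 63) and lungs (n = 55); each point is 1 library, and mouse FP17 is named. The points rise together in both tissues (r = 0.63 in heart and 0.84 in lungs), and FP17 lies far above the other lung libraries. Without FP17 the value in lungs was 0.63 (n = 54).

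The lungs of FP17 stood apart in the cluster and in its neighbours, an observation made after the values were seen. miR-381-3p was 1970 there, against 50.1 to 275 (median 117) in the 54 other libraries. miR-411-5p was 1651 (others 217 to 643), miR-410-3p 356 (38.8 to 149) and miR-541-5p 326 (42.0 to 108). In 12 of the 14 tested members, all but miR-494-3p and miR-369-3p, FP17 lay above every other library, with ratios to the median from 0.861 to 16.6 (median 3.54). Of the 10 tested miRNAs upstream of miR-379 in the region, 7 were also above every other library, and miR-127-3p was 4979 against 474 to 1076. The neuronal miR-9-5p was not high (59.3 against a median of 73.6), but the summed neuronal list was above its median, inside the range of the other libraries. The muscle and endothelial sums of FP17 were the highest of these libraries, and its sums of the remaining lists lay inside their range. The part of these cell types in FP17 was not tested.

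Change with dose and time was tested with limma on log2(value + 1) in 1 fit of the 16 groups per tissue, with p-values adjusted by the Benjamini-Hochberg method over all tested miRNAs. In cortex no member passed an adjusted p of 0.05 in any of these comparisons. By dose it was 0 of 37, beside 1.04% of all tested miRNAs; by time 0, beside 0%; and by dose and time together 0, beside 0%. For the 3 fentanyl doses together against sham of the same timepoint it was 0 at 0h, 6h, 24h and 7d, beside 0, 0, 0 and 2.49% of all tested miRNAs. At an unadjusted p under 0.05 there were 27 of 37 members at 0h, beside 42.9% of all tested miRNAs, and 27 at 6h, beside 40.5%. There were 0 at 24h, at 7d and in the tests of dose, time and both. edgeR and DESeq2 on the recovered reads also gave 0 in these 7 tests. For each dose at each timepoint limma gave 0 members in any of the 12 conditions, beside 2.9% of all tested miRNAs. edgeR called 1, beside 26.3%, miR-409-5p at HNLD 0h (log2 fold change 4.19, adjusted p = 0.0354). DESeq2 called 2, beside 26.6%, miR-409-5p (4.18, adjusted p = 0.0108) and miR-539-5p at HNLD 6h (0.84, adjusted p = 0.0485).

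The members' excess over sham in cortex at 0h and 6h came with FP96 and FP85, which are sham libraries. The median log2 fold change was 1.35 at 0h, with 36 of 37 members above 0 beside a median of 0.19 over all tested miRNAs, and 1.25 at 6h. Without the 3 libraries that stand apart the medians were −0.00 at 0h, 0.02 at 6h, −0.02 at 24h and 0.06 at 7d, with a median SE of 0.21 at 0h, 6h and 24h and of 0.195 at 7d. The values of miR-411-5p at 0h show this plainly. They were 15484, 16560, 15184 and 659 (FP96) in sham mice, and 14594, 14037, 12555 and 14905 in HNLD mice. LD10 mice had 16739, 16818, 12282 and 22523, and LD50 mice 16588, 14557, 15767 and 11488. Without FP96 the sham values lay above all 4 HNLD values and within the ranges of LD10 and LD50. The log2 fold change of fentanyl against sham went from 1.08 ± 0.47 (SE, adjusted p = 0.0911 by limma) to −0.07 ± 0.15 without the libraries. miR-381-3p went likewise from 1.56 ± 0.62 to 0.07 ± 0.17, and miR-410-3p from 1.68 ± 0.69 to −0.05 ± 0.15.

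Low members gave what remained in cortex. miR-409-5p, the low arm of a hairpin whose 3p arm had a mean of 1078, varied 128-fold between the 60 libraries, from 3.09 to 396 (median 12.0). At 0h it was 10.6, 7.06, 8.85 and 0 (FP96) in sham and 5.25, 49.7, 396 and 8.95 in HNLD mice. Its call thus went with a sham library at 0 and 2 of 4 HNLD mice above the rest. miR-539-5p at 6h was 8.04, 7.89, 0.532 (FP85) and 13.5 in sham and 14.0, 15.9, 12.4 and 12.9 in HNLD mice, and these ranges overlapped even without FP85. In the HNLD 6h group, whose members' share was the highest, miR-299a-3p was 118, 102, 125 and 136, against 50.6, 87.6, 11.7 (FP85) and 109 in sham. miR-382-3p was 87.4, 71.4, 70.5 and 77.6, against 34.9, 49.3, 1.33 (FP85) and 58.1 in sham, with no overlap. Without the libraries that stand apart its log2 fold change was 0.71 ± 0.29 (SE; limma, adjusted p = 0.492), and that of miR-299a-3p was 0.60 ± 0.35. By dose and time together the member with the smallest p was miR-299a-5p (adjusted p = 0.917 by limma), with values from 8.62 to 28.7 over the 60 libraries.

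With the 3 libraries left out, 1 of 37 members passed by time in cortex, beside 3.11% of all tested miRNAs. This was miR-376b-3p (limma, adjusted p = 0.0401). It was lowest at 6h, with a mean of 712 (402 to 1275, n = 15), beside 857 at 0h (567 to 1121), 897 at 24h (657 to 1132) and 920.1 at 7d (727 to 1156). The timepoints overlapped. At 6h the HNLD mice had 652, 722, 501 and 402, among them the 2 lowest of the 15, and the other groups overlapped with them. By dose and by dose and time together 0 members passed. At an unadjusted p under 0.05 by limma there were 9 of 37 members by time, 4 by dose and time together, 1 by dose and 0 or 1 at each timepoint. For single doses at single timepoints the most were 6, for LD50 at 6h, and 5, for LD10 at 0h. The share of all tested miRNAs at this unadjusted threshold was not counted here, so these unadjusted counts are not a result about the members.

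In heart no member passed in any comparison, with FP38 in or out. By dose, time, both, and fentanyl against sham at 0h, 6h, 24h and 7d, limma called 0 of 9, beside 0% of all tested miRNAs each time. For each dose at each timepoint it called 0, beside 7.19%. edgeR and DESeq2 called 0, beside 8.12% and 11.9% of all tested miRNAs for each dose at each timepoint. At an unadjusted p under 0.05 by limma there was 1 member by time and 1 at 24h and none in the other 5 tests. The share of all tested miRNAs at this threshold is not given for heart, so these unadjusted counts are not a result about the members. The member at 24h was miR-299a-3p, with 6.40, 0, 5.87 and 8.41 in sham mice. It was 6.20, 11.5, 5.72 and 6.98 in HNLD, 10.3, 7.12, 10.7 and 5.21 in LD10 and 13.3, 9.94, 7.34 and 16.3 in LD50 mice. The groups overlapped, and the log2 fold change of 1.06 ± 0.35 (SE) had an adjusted p of 0.449 by limma. Of the leading members, miR-541-5p at 24h differed by 0.51 ± 0.27 (adjusted p = 0.731). miR-411-5p at 24h was 387 to 647 in sham and 462 to 772 in the 12 fentanyl mice, and miR-381-3p was 177 to 315 and 122 to 383.

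In lungs miR-379-5p, miR-541-5p and miR-369-3p were lower after fentanyl than in sham mice at 24h, where all sham libraries are of FP91 to FP96. Lower values at 0h were called for miR-379-5p and miR-541-5p, with FP87, FP88, FP95 and FP96 as sham mice. For miR-379-5p the high sham values at 0h were those of FP95 and FP96. For miR-541-5p all 4 sham mice at 0h lay above the 12 fentanyl mice. The count needs care, since 4 of the 14 tested members passed the filter only through FP91 to FP96 and FPB2, where they were high. Outside these 7 libraries, miR-494-3p and miR-376b-5p reached a value of 10 in no library, and miR-411-3p and miR-382-5p in 1 each. Such a member had to differ, so its call supports nothing, and its values are given as a description. With these 4 in, limma called 7 of 14 lower at 24h (beside 19.4% of all tested miRNAs) and 6 lower at 0h (beside 8.63%). It called 7 by dose (beside 34.5%), 4 by dose and time together (beside 9.43%), 1 by time (beside 1.35%) and 7 at least once over the doses and timepoints (beside 48%). The call by time was miR-494-3p, and it was lost without any 1 of 22 libraries.

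With the filter judged on the libraries outside the 7, an alternative chosen after seeing the data, 10 members were tested. Limma called 3 of these lower at 24h, beside 16.2% of all tested miRNAs, and 2 lower at 0h, beside 5.6%. By dose it called 3, beside 32.5%, by dose and time together 1 (miR-379-5p), beside 6.44%, and by time 0, beside 0%, with 3 at an unadjusted p under 0.05. At 6h and 7d it called 0, beside 0%, with either filter, with 0 and 1 members at an unadjusted p under 0.05, and edgeR and DESeq2 with the first filter called 0 at both. The share of all tested miRNAs at an unadjusted p under 0.05 is not given for lungs. The unadjusted counts in lungs are therefore not a result about the members.

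miR-379-5p, the first member of the cluster, had the largest difference of the 10. In sham lungs at 24h, all from FP91 to FP96, it was 72.8, 76.2, 102 and 87.2, and in the 12 fentanyl mice at 24h it was 2.85 to 9.09. At 0h it was 10.3 and 8.00 in the sham mice FP87 and FP88 and 103 and 63.0 in the sham mice FP95 and FP96. The 12 fentanyl mice at 0h had 3.51 to 16.4, on both sides of the former 2 sham mice. The LD10 mice at 6h had 5.09, 4.07 and 5.19 and, in FPB2, 39.3. The high values were those of FP91 to FP96 and FPB2, in the 6 sham mice and in the 1 LD10 mouse. The log2 fold change of fentanyl against sham was −3.66 ± 0.43 (SE; limma, adjusted p = 5.49e-09) at 24h and −2.04 ± 0.43 (adjusted p = 0.00176) at 0h.

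miR-494-3p was 22.5, 12.0, 36.2 and 25.4 in sham lungs at 24h and 0.510 to 2.37 in the fentanyl mice. At 0h it was 0.968 and 1.93 in FP87 and FP88 and 11.9 and 10.2 in FP95 and FP96. FPB2 had 17.1, and no library outside the 7 had more than 3.30. All 7 thus lay above the other 56.

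miR-411-3p, which shares its seed with miR-379-3p, was 50.3, 23.9, 53.6 and 37.6 in sham lungs at 24h and 1.07 to 6.07 in the fentanyl mice. At 0h it was 5.17 and 6.62 in FP87 and FP88 and 37.0 and 36.6 in FP95 and FP96, and FPB2 had 39.3. Outside the 7 it reached 10 in FP17 alone (23.0).

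miR-376b-5p was 29.1, 22.9, 32.2 and 35.1 in sham lungs at 24h and 1.78 to 7.19 in the fentanyl mice. At 0h it was 5.49 and 4.97 in FP87 and FP88 and 31.7 and 20.3 in FP95 and FP96, and FPB2 had 13.7. No library outside the 7 had more than 8.27. In all 4 of these members the 7 libraries lay above the other 23 libraries of FP59 to FP88 without overlap. For miR-376b-5p, for example, the 7 ran from 13.7 to 35.1 (median 29.1) and the 23 from 1.79 to 7.19 (median 4.55).

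miR-382-5p was 7.94, 10.9, 14.7 and 18.2 in sham at 24h and 1.58 to 6.44 in the fentanyl mice, again without overlap. The abundant miR-541-5p also differed. It was 119, 122, 212 and 134 in sham and 42.0 to 100 in the fentanyl mice (log2 fold change −1.02 ± 0.24; limma, adjusted p = 0.000476). At 0h miR-541-5p was 90.1 to 135 in the 4 sham mice and 42.5 to 80.3 in the 12 fentanyl mice, without overlap. The sham mice FP95 and FP96 differed there from FP87 and FP88 by 0.28 ± 0.40 (SE, limma, adjusted p = 0.622). miR-369-3p was lower at 24h only (−1.05 ± 0.30, adjusted p = 0.00314), and its groups overlapped. The 2 most abundant members, miR-411-5p and miR-381-3p, did not pass. miR-411-5p differed by −0.31 ± 0.24 at 0h and −0.11 ± 0.24 at 24h, and in sham at 24h it was 405, 384, 530 and 542 within the 217 to 598 of the fentanyl mice. miR-381-3p was 96.6, 135, 165 and 104 in sham at 24h and 58.4 to 274 in the fentanyl mice.

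**Figure D5:**
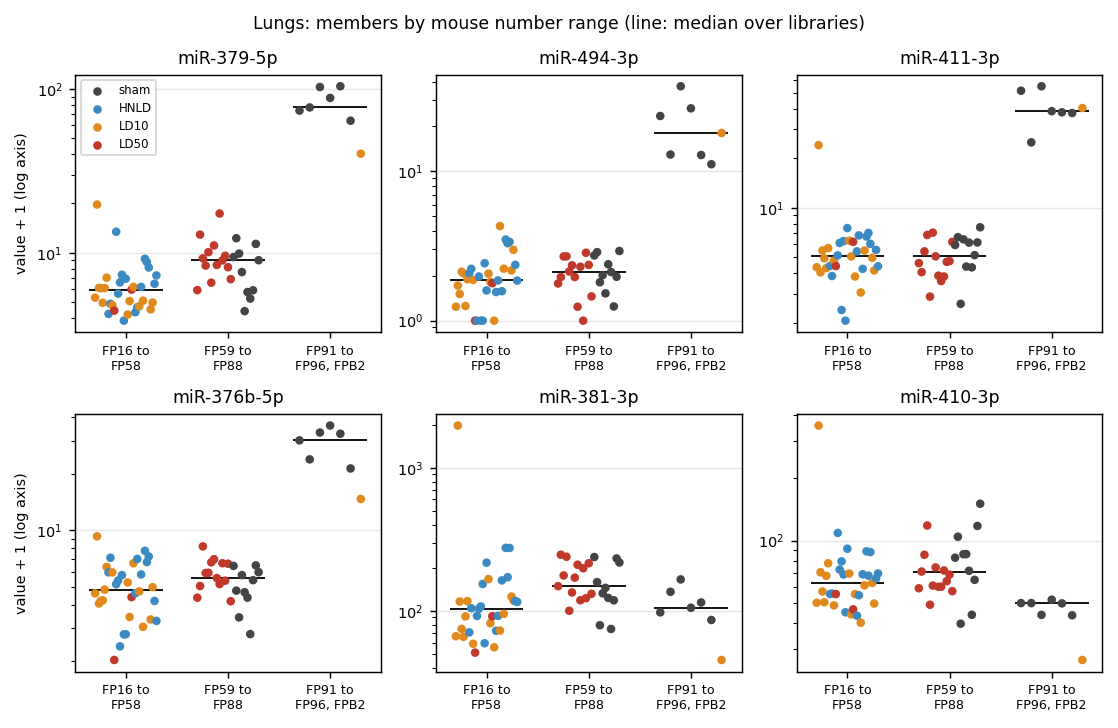
Values plus 1 in lungs (normalized reads, log axis) of miR-379-5p, miR-494-3p, miR-411-3p, miR-376b-5p, miR-381-3p and miR-410-3p by range of mouse number; each point is 1 library, its colour gives the treatment, and the line is the median. FP91 to FP96 and FPB2 lie above FP59 to FP88 in miR-379-5p (39.3 to 103 against 3.40 to 16.4) and not in miR-381-3p (44.4 to 165 against 73.8 to 246).

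The lung differences at 24h could not be tested within a range of mouse numbers. FP59 to FP88 held no sham mouse at 24h, and FP16 to FP58 held no sham mouse at any timepoint. The comparison of LD50 with sham that follows was not split by timepoint, so it does not single out 0h. LD50 against sham within FP59 to FP88 gave 0 of 14 members, beside 1.35% of all tested miRNAs (1.4% with the filter outside the 7), with 1 at an unadjusted p under 0.05 by limma. LD10 against HNLD within FP16 to FP58 gave 0, beside 0%, with none at an unadjusted p under 0.05. Sham against sham at 0h gave calls of its own, with 2 mice on either side: FP95 and FP96 were higher than FP87 and FP88 in 4 members, beside 14% of all tested miRNAs, and lower in 2, beside 12.1%. Of the 4, only miR-379-5p (log2 difference 3.01 ± 0.50) passed the filter outside the 7 libraries, where 1 was higher, beside 11.8%, and 2 lower, beside 12.6%. The lower members were miR-300-3p (−1.49 ± 0.39) and miR-410-3p (−1.51 ± 0.49). With a term for the number range in the fit, 0 members passed in any lung comparison. Without the 7 libraries, 0 members passed at 0h, beside 0 of 371 tested miRNAs, with 3 members at an unadjusted p under 0.05. The sham side at 0h was then FP87 and FP88 only. The members' median log2 fold change at 0h was −0.56, with 1 of 14 above 0. Over all tested miRNAs the median was −0.01, with 48.8% above 0. At 6h the members' median was −0.24, with 0 above 0, and at 7d it was 0.20, with 12 above 0. Sham at 24h has no libraries outside the 7, so treatment and number range cannot be told apart at 24h. The same 7 libraries had epithelial sums above those of all others, erythroid sums of 19382 to 32519 against 27913 to 146273, leukocyte sums of 9720 to 20498 against 5120 to 16329, fibroblast sums of 6586 to 8706 against 7452 to 12773, and neuronal sums of 265 to 557 against 188 to 1654. The part of these cell types in the result was not tested.

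Few other miRNAs of the imprinted region passed. Of 31 listed miRNAs upstream of miR-379, 22 were tested in cortex, where miR-127-3p (51313 ± 9357, n = 60) and miR-434-3p (43996 ± 12119) were higher than any member. None was called in cortex or heart by dose, by time, by both or by timepoint. In lungs 2 of 10 were called by dose (miR-136-3p and miR-136-5p), beside 34.5% of all tested miRNAs, and 0 otherwise. Of 35 other arms of hairpins between miR-379 and miR-410, 15 were tested in cortex and none in heart or lungs, and 0 were called.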

How the data were processed

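Small RNA libraries of cortex, heart and lungs were made by the authors with the Illumina TruSeq Small RNA kit from total RNA and read on a NextSeq 500. Reads were checked with FastQC, trimmed of adapters, filtered on quality and mapped to mature mouse miRNAs of miRBase. The paper names Bowtie 1.0.0, with mismatches allowed, after it describes a second mapping to the mouse genome. The deposited values are a signal: reads per miRNA divided by a library factor, scaled with TMM in edgeR for each tissue alone, with replicates not pooled. Whole reads were recovered from the steps between low values (100% whole within 0.1 read). Duplicate molecules cannot be counted, since the reads carry no molecular identifiers.

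Each tissue was fitted alone with limma 3.58.1 (R 4.3.3; log2(value + 1), a mean for each of the 16 groups, a mean trend). A miRNA was kept where 4 or more libraries reached a value of 10, and Benjamini-Hochberg adjustment ran over all that were kept. A fold change on this scale understates the change of low miRNAs. edgeR 4.0.16 (quasi-likelihood) and DESeq2 1.42.0 on the recovered reads, pseudocounts of 0.25 and 4, no filter, another scaling, a filter judged on the libraries outside FP91 to FP96 and FPB2, a term for the mouse number range and leaving out libraries were alternatives, and scripts were tested on simulated data. Correlations were of log2 deviations from group means. Described in full were, per tissue, the 3 members with the highest mean, those with the smallest p for dose and time together, and up to 4 called members with the largest fold change per comparison. miR-409-5p, miR-539-5p, miR-376b-3p, miR-369-3p, miR-369-5p, miR-376a-3p and library FP17 were added after their values were seen. The members, lists and comparisons were chosen with earlier results of these data known.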

Additional observations from a re-analysis of the deposited data

Results flagged for a closer look

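The members' share of all reads was compared within the 46 groups of 4 libraries, and in 7 of them 1 library stood far from the other 3; chance alone gives about 1 in 20. In cortex, FP96 of sham 0h held 0.0698%, against 5.12 to 6.09% in the others. FP33 of HNLD 6h held 7.62% (others 6.88 to 7.00%), FP66 of LD50 24h 5.82% (5.24 to 5.28%) and FP59 of LD50 7d 7.15% (5.73 to 5.92%). In heart, FP38 of HNLD 6h held 0.0523% (0.147 to 0.166%). In lungs, FP17 of LD10 7d held 0.403% (0.0608 to 0.0831%) and FP93 of sham 24h 0.16% (0.112 to 0.119%). FP96 and FP38 are libraries whose profiles went against their labels, and FP33, FP66 and FP59 lay inside the range of the other cortex libraries.

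In lungs the effect of dose differed between timepoints in 4 members by limma's test of dose and time together: miR-379-5p (adjusted p = 0.000483), miR-376b-5p (adjusted p = 0.000483), miR-411-3p (adjusted p = 0.00198) and miR-494-3p (adjusted p = 0.00309). Of these members, 4 of 4 sham lungs at 24h were higher than all 12 fentanyl lungs, and each of those sham lungs is one of FP91 to FP96. The last 3 passed the filter on low values only through FP91 to FP96 and FPB2, so their p-values support nothing. No member passed this test with a term for the mouse number range.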

How the results depend on the processing

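Over all alternatives other than leaving out 1 library, 232 counts and summary values stayed within 1.5 times or 1 SD of the reported value and 37 moved. Of named members, 172 values kept their direction and call, 22 lost the call and 1 reversed. In cortex the count of members by time was 1 without the libraries that stand apart, and the count in at least 1 of 12 conditions was 1 with edgeR and 2 with DESeq2. In lungs, the term for the mouse number range brought the counts by dose, time, both, at 0h, at 24h and in at least 1 of 12 conditions to 0, and it turned miR-494-3p at 0h to a log2 fold change of 0.33. Without the 7 lung libraries the count at 0h was 0. With no filter the lung count by time was 0 and those at 24h and in at least 1 of 12 conditions were 11 each, and edgeR and DESeq2 gave 7 each by dose and time together. For these alternatives the share of all tested miRNAs was not counted, so the counts are not a result about the members. With the filter judged outside FP91 to FP96 and FPB2, chosen after seeing the data, lung counts were 3 by dose, 0 by time, 1 by both, 2 at 0h, 3 at 24h, 3 in at least 1 of 12 conditions and 3 for sham against sham. The rank correlation of level with position in lungs was −0.055 over the tested members alone. The cortex median correlation between members was 0.403 by Spearman, 0.102 without the libraries that stand apart, and, as alternatives chosen after seeing the data, 0.14 without FP85 and FP96, 0.0937 by Spearman and 0.095 within number ranges with all of these left out. In heart it was 0.469 by Spearman and, without FP38, 0.438, 0.378 by Spearman and 0.443 within ranges. In lungs it was 0.315 by Spearman, 0.456 without the 7 libraries and 0.457 also without FP38.

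Leaving out 1 library at a time, cortex counts ran from 0 to 33 at 0h (33 without FP87, 31 without FP88 or FP85, 30 without FP95), 0 to 30 at 6h (30 without FP96, 29 without FP77 or FP86, 26 without FP78) and 0 to 31 in at least 1 of 12 conditions (31 without FP96, 22 without FP85 or FP86, 2 without FP77). The share of all tested miRNAs was not counted in these fits or in those of lungs. With all cortex libraries in, 42.9% of all tested miRNAs had an unadjusted p under 0.05 by limma at 0h and 40.5% at 6h. These counts are therefore not a result about the members. The lung counts were 7 to 9 by dose, 0 to 3 by time (0 without any of 22 libraries, 3 without FPB2), 4 to 5 by both, 0 to 6 at 0h (0 without FP95, 1 without FP96), 7 to 8 at 24h, 7 to 8 in at least 1 of 12 conditions and 4 to 6 for sham against sham. The rank correlation with position was 0.178 to 0.188 (cortex), 0.0314 to 0.0515 (heart) and 0.0064 to 0.0288 (lungs), and the median correlation between members was 0.772 to 0.877, 0.438 to 0.600 and 0.215 to 0.406 in the same order. The cause of these shifts was not tested, apart from the libraries named. Treatments and timepoints could not be paired, because each mouse had 1 treatment and 1 timepoint and the replicate numbers only follow the order of the records. Tissues of a mouse are linked by its number, but only the members' shares were compared in that way. Most members in heart and lungs were under 10 reads, where counting error alone limits what can be seen.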
